A study of Homo sapiens with 12 samples.

Results

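The genes described here are NR3C1, which encodes the glucocorticoid receptor, its relative NR3C2, and 7 genes whose products act with the receptor, namely HSP90AA1, HSP90AB1, FKBP4, NCOA1, NCOA2, NCOR1 and EP300. They were chosen by name, with earlier results of these data known. All regions whose summit lay in the hg38 span of a listed gene or within 50 kb of it (200 kb for NR3C1) were taken from 8 deposited lists of chromatin immunoprecipitation and sequencing (ChIP-seq) regions. This gave 25 of 11908 regions. Overlapping regions of different lists were counted as 1 site, which gave 16 sites. Regions lay at 6 of the 9 genes, and NR3C2, HSP90AA1 and NCOA2 had none in their windows.

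The series mapped NR3C1 and STAT5B binding in cells of SUPT-1, a long-established line from a human T-cell acute lymphoblastic leukaemia, made to carry doxycycline-inducible STAT5B. The N642H line overexpressed the STAT5B mutant N642H, an activating change in the SH2 domain, and the WT line overexpressed wild-type STAT5B. Both lines were selected with puromycin and induced with doxycycline in every group, and cells were then given 250 µg/ml prednisolone, a synthetic glucocorticoid, for 16 hours or were left untreated. Each antibody, line and treatment had 1 library, so the spread between cultures was not measured and no difference between libraries could be tested. The labels do not say whether the cells of a line came from 1 clone, and the STAT5B antibody is not described as telling the introduced protein from the cells' own. T-cell identity cannot be checked in region lists.

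In cells without hormone, the glucocorticoid receptor is held in the cytoplasm by the HSP90 chaperones, encoded by HSP90AA1 and HSP90AB1, together with immunophilins such as FKBP4. With a ligand such as prednisolone the receptor moves to the nucleus. There it binds DNA and recruits coactivators, among them NCOA1, NCOA2 and the acetyltransferase EP300, or corepressors such as NCOR1. NR3C2 encodes the mineralocorticoid receptor, which also binds glucocorticoids. STAT5B is a transcription factor activated by tyrosine phosphorylation downstream of cytokine receptors such as that for IL-7. In some human T-cell leukaemia lines the receptor's own transcript is known to rise with glucocorticoid.

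The deposited lists held 2888 regions on the main chromosomes for NR3C1 in prednisolone-treated N642H cells, 995 for NR3C1 in prednisolone-treated WT cells, and 2 for NR3C1 in each untreated line. STAT5B had 446 regions in prednisolone-treated N642H cells, 766 in prednisolone-treated WT cells, 4542 in untreated N642H cells and 2267 in untreated WT cells. For each region the authors gave a fold enrichment of ChIP over local background at the summit and a −log10 q value. The median fold of the 6 longer lists lay between 6.13 and 8.68, and the lowest −log10 q in each was about 2.0. The number of ChIP tags at a summit, recovered from these values, had a list median between 11 and 19. None of the 25 regions at the 9 genes lay on a high local background, taken as at least 10 times the genome background of the library. Set side by side, folds from different lists are no measure of a change between libraries.

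Promoter sequences are shown where a summit lay inside the promoter of a listed gene, or, for NCOR1, in that of its neighbour PIGL. Capitals mark bases inside a deposited region, and the sequences, from RefSeq on GRCh38.p14, run 5′ to 3′ on the strand of the gene from 250 bases before its transcription start to 50 after. The first NR3C1 promoter held a STAT5B region of untreated N642H cells and the other held an NR3C1 region of prednisolone-treated N642H cells. The HSP90AB1 promoter held a STAT5B region of untreated WT cells, and the PIGL promoter held STAT5B regions of 3 libraries.
NR3C1, chr5:143403637-143403936, minus strand: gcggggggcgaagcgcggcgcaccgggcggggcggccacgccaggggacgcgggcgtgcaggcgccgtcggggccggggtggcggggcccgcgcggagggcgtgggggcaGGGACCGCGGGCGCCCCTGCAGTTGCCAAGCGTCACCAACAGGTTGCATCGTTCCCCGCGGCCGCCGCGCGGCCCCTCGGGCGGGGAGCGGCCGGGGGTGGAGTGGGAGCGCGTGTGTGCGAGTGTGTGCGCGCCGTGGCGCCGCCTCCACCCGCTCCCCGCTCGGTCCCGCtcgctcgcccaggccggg
NR3C1, chr5:143404187-143404486, minus strand: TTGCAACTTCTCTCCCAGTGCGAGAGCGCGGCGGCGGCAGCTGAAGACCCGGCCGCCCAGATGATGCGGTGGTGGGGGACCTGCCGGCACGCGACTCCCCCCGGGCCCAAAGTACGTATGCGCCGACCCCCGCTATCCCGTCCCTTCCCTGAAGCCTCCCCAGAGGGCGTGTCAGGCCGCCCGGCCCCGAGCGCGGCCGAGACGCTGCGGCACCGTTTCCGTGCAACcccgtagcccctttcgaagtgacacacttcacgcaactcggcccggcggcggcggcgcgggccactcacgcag
HSP90AB1, chr6:44246851-44247150, plus strand: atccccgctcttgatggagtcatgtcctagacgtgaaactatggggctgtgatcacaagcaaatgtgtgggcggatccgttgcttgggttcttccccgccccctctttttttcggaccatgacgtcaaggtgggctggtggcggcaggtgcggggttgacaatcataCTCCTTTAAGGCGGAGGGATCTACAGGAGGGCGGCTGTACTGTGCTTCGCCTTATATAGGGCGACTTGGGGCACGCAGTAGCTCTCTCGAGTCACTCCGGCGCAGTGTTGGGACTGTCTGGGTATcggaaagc
PIGL, chr17:16216960-16217259, plus strand: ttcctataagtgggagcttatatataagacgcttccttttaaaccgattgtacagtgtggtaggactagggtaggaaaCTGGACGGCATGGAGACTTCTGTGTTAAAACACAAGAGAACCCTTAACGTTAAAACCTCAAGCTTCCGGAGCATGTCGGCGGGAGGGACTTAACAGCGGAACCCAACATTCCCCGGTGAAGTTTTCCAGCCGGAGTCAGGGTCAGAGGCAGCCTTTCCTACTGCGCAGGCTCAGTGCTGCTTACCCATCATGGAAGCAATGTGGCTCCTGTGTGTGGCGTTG

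Guanine and cytosine made up 82.3% of the first NR3C1 sequence, 71.7% of the other, 57.0% of the HSP90AB1 sequence and 50.7% of the PIGL sequence. A STAT5 motif, spelled TTCNNNGAA, occurred once among these 4 promoters, as TTCCCTGAA at bases 145 to 153 of the NR3C1 promoter at chr5:143404187-143404486. These bases lay inside the NR3C1 region, and no STAT5B list had a region there. The motif is the same on both strands, and 7.66% of 35116 RefSeq promoters of this length held it. The glucocorticoid receptor motif, spelled GNACA, any 3 bases and then TGTNC, is also the same on both strands and occurred in none of the 4 and in 0.39% of all promoters.

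NR3C1 (gene ID 2908) spans chr5:143277931-143435512 on the minus strand and had 13 of the 25 regions, in 8 sites. Its strongest signal was a distal site 166684 bp upstream of the 5′ end of the gene, by its summit in N642H cells, in no annotated protein-coding gene, where NR3C1 and STAT5B regions coincided in both lines after prednisolone. The NR3C1 region of prednisolone-treated N642H cells ran over chr5:143601885-143602601, with a fold of 80.1, a −log10 q of 369 and 179 tags at the summit. It stood at rank 15 of 2888 regions. In prednisolone-treated WT cells the NR3C1 region ran over chr5:143601948-143602448, with a fold of 55.9, a −log10 q of 179 and 128 tags. It stood at rank 7 of 995. Both were thus in the top 1% of their lists, at 0.519% in N642H cells and 0.704% in WT cells. Neither untreated NR3C1 list had a region at this site.

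STAT5B had a narrower region inside the NR3C1 region at the same site in each line. In prednisolone-treated N642H cells it covered chr5:143602149-143602240, with a fold of 10.6, a −log10 q of 12.9 and 17 tags, at rank 56 of 446. In prednisolone-treated WT cells it covered chr5:143602025-143602320, with a fold of 10.2, a −log10 q of 13.2 and 24 tags, at rank 43 of 766. The STAT5B summit lay 1 bp from the NR3C1 summit in N642H cells and 41 bp from it in WT cells. The untreated STAT5B lists, although longer, had no region at this site in either line. The STAT5B folds were close to each other in the 2 lines and were far below the NR3C1 folds in both. Folds of different antibodies and libraries are no measure of how much of each protein was bound. The deposited files do not show whether the same DNA molecules carried both proteins.

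A weaker NR3C1 site lay further upstream, 3273 bp from the stronger one by the N642H summits and 3235 bp by the WT summits. In prednisolone-treated N642H cells it covered chr5:143605327-143605797, with a fold of 18.4 and 47 tags, at rank 346 of 2888. In prednisolone-treated WT cells it covered chr5:143605394-143605597, with a fold of 9.63 and 22 tags, at rank 401 of 995. The summits of the 2 lines were 27 bp apart, and no STAT5B list had a region at this weaker site. It thus stood higher in the longer N642H list than in the WT list. The nearest annotated transcription start to both distal sites was that of the non-coding RNA gene LOC105378210, 60697 bp from the stronger site on the side away from NR3C1.

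**Figure D1:**
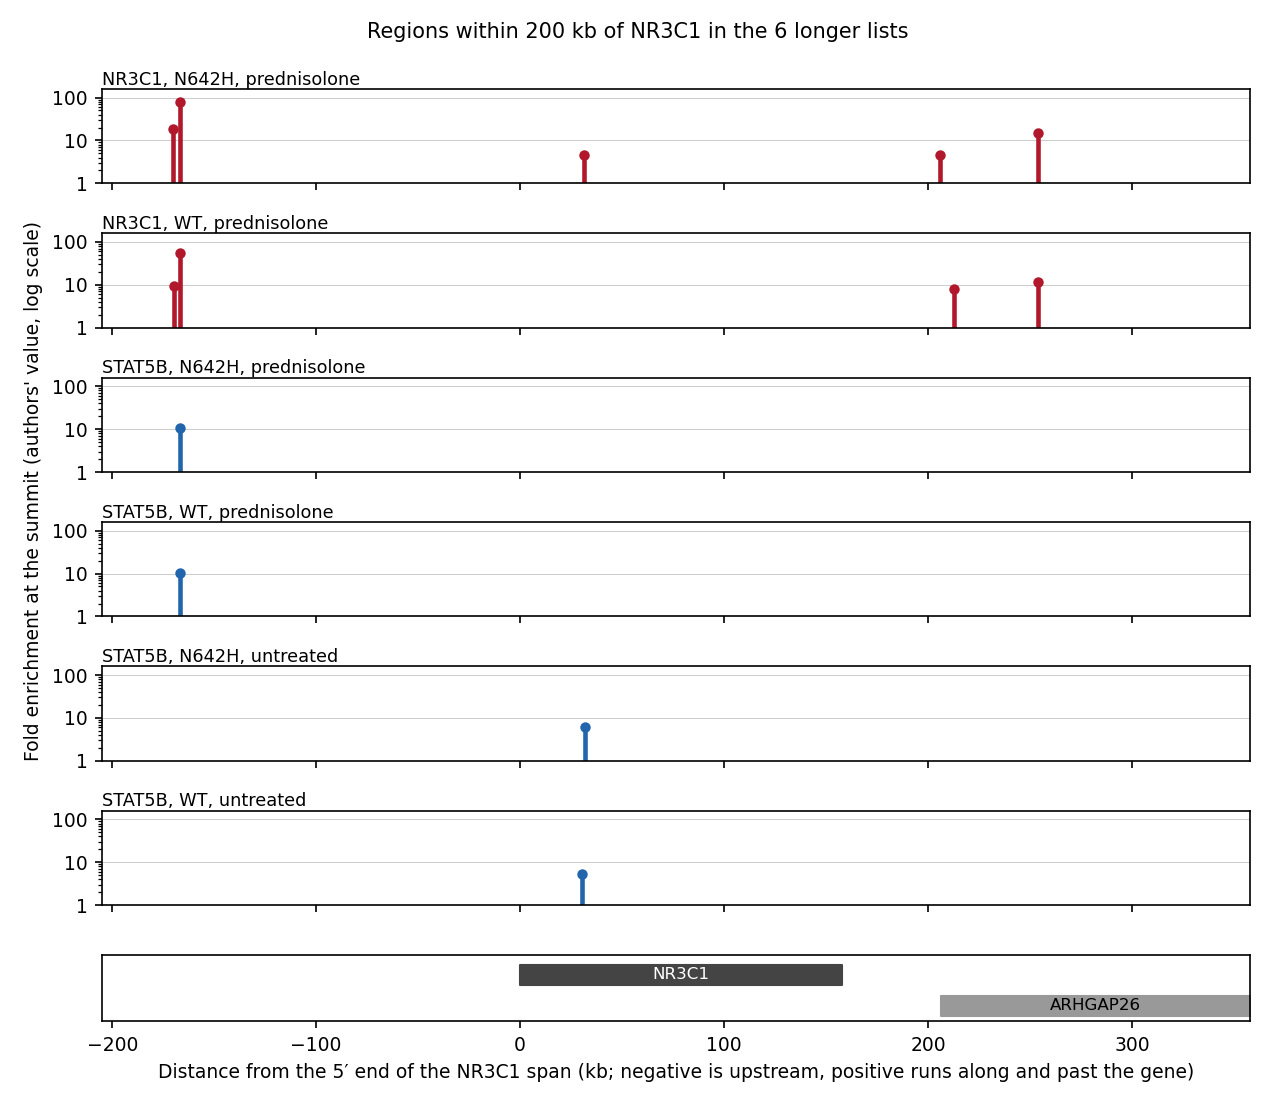
Fold enrichment (the authors' value, log axis from 1) of every region within 200 kb of NR3C1, against distance from the 5′ end of the gene span in kb, with 1 panel for each of the 6 longer lists and the gene spans at the bottom. The strongest NR3C1 regions, with folds of 80.1 in N642H and 55.9 in WT cells, stand upstream of the gene at the place where STAT5B regions with folds of 10.6 and 10.2 appear after prednisolone. The untreated STAT5B regions lie inside the gene, at its promoters.

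At the NR3C1 promoters 3 libraries had 1 region each, at 3 different starts, and none of these regions overlapped another. STAT5B in untreated N642H cells had a region at chr5:143403655-143403826, with a fold of 6.10 and 14 tags, whose summit was 42 bp upstream of the start at position 143403686. STAT5B in untreated WT cells had one at chr5:143405195-143405299, with a fold of 5.40 and 10 tags, 106 bp downstream of the start at 143405355. The 2 STAT5B summits were thus 1521 bp apart. NR3C1 in prednisolone-treated N642H cells had a region between them, at chr5:143404260-143404494, with a fold of 4.67 and 10 tags. That region was among the weakest of its list, at rank 2850 of 2888, and the WT list had none at the NR3C1 promoters. The STAT5B regions stood at rank 2584 of 4542 in untreated N642H cells and rank 1813 of 2267 in untreated WT cells. No STAT5B region lay at an NR3C1 promoter in either prednisolone list.

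On the 3′ side, 4 NR3C1 regions in 3 sites lay inside or next to ARHGAP26, which encodes a GTPase-activating protein and is the next protein-coding gene. The site farthest from NR3C1, 96545 bp past its 3′ end by the N642H summit, was found in both lines after prednisolone. It covered chr5:143181267-143181451 in N642H cells, with a fold of 15.1 and 27 tags, and chr5:143181275-143181561 in WT cells, with a fold of 11.7 and 25 tags. The summits were 22 bp apart. The other sites were in 1 line each. N642H cells had a region at chr5:143229743-143229929, with a fold of 4.70 and 13 tags, 747 bp beyond the end of ARHGAP26. WT cells had one at chr5:143222950-143223039, inside ARHGAP26, with a fold of 8.05 and 14 tags. No STAT5B list had a region on this side of the gene.

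NR3C2 (gene ID 4306, chr4:148078764-148445322) had no region in any of the 8 lists within 50 kb, and the nearest region in any list lay 3315841 bp away.

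Of the HSP90 genes, HSP90AB1, which encodes the constitutive cytosolic form, had 4 regions, and HSP90AA1, which encodes the stress-inducible form, had none within 50 kb. At HSP90AB1 (gene ID 3326, chr6:44246194-44253883, plus strand) the regions within the gene were STAT5B regions of untreated cells. In untreated N642H cells STAT5B had a region at chr6:44246448-44246603, with a fold of 4.07 and 18 tags, at rank 3926 of 4542. In untreated WT cells it had a region at chr6:44246416-44246565, with a fold of 6.58 and 11 tags, at rank 1107 of 2267. The regions overlapped by 118 bp, and their summits lay 300 bp and 258 bp downstream of the first annotated start. The N642H region had more tags but the smaller fold, on a local background of 3.67. Untreated WT cells had a further STAT5B region at chr6:44247018-44247142, with a fold of 3.90 and 14 tags, 22 bp downstream of another start at position 44247101. It stood near the end of its list, at rank 2161 of 2267.

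Neither prednisolone STAT5B list had a region at HSP90AB1. NR3C1 in prednisolone-treated N642H cells had a region 20222 bp upstream, at chr6:44225914-44226077, with a fold of 6.30 and 11 tags. That region lay inside SLC29A1, a nucleoside transporter gene, 2377 bp from its start. Heat shock elements, spelled GAANNTTC and the same on both strands, are binding sites of HSF1. The HSP90AB1 promoter at chr6:44247693-44247992 held a pair of them, GAAGATTC and GAAGCTTC, and the HSP90AA1 promoter at chr14:102086995-102087294 held GAAGGTTC. The motif was present in 6.77% of all promoters, and none of the lists had a region at these promoters.

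HSP90AA1 (gene ID 3320, chr14:102080742-102139749) had its nearest regions just outside the window, inside the neighbouring gene WDR20, which encodes a WD-repeat partner of deubiquitinating enzymes. The nearest was an NR3C1 region of prednisolone-treated N642H cells at chr14:102197307-102197701, 57775 bp away, with a fold of 27.0 and a rank of 224 of 2888. Between 65978 and 66102 bp from HSP90AA1 there were regions in 4 lists. Their folds were 7.67 for NR3C1 in prednisolone-treated N642H cells, 5.17 for NR3C1 in prednisolone-treated WT cells, 5.35 for STAT5B in untreated N642H cells and 6.65 for STAT5B in untreated WT cells. These regions were not counted among the 25. The nearest regions outside the window of other genes were, for HSP90AB1, STAT5B regions of 3 lists from 59460 bp away, for EP300, an untreated STAT5B region of WT cells 69921 bp away, for NCOR1, a STAT5B region of prednisolone-treated WT cells 165461 bp away with a fold of 7.71, and, for NR3C1, an NR3C1 region of prednisolone-treated N642H cells 377123 bp away.

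FKBP4 (gene ID 2288, chr12:2794970-2805423) encodes the immunophilin FKBP52, which couples the receptor complex to dynein. Its 3 regions lay past the gene, between 7391 and 7625 bp away, inside the neighbour ITFG2, whose product belongs to the KICSTOR complex of the mTORC1 pathway. NR3C1 had a region at chr12:2812931-2813090 in prednisolone-treated N642H cells, with a fold of 7.57 and 15 tags, at rank 1716 of 2888. It had one at chr12:2812996-2813077 in prednisolone-treated WT cells, with a fold of 6.32 and 10 tags, at rank 934 of 995. STAT5B in untreated N642H cells had a region 51 bp short of the NR3C1 region of that line, at chr12:2812724-2812879, with a fold of 6.49 and 12 tags. From the ITFG2 start, the NR3C1 summits stood 344 bp downstream in N642H and 380 bp downstream in WT cells, and the STAT5B summit 146 bp. The NR3C1 and STAT5B regions were thus neighbours without overlapping, and no other list had a region there.

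Among the coactivator genes, NCOA1 and EP300 had 1 STAT5B region each, both in untreated N642H cells and both at the promoter of another gene, and NCOA2 had none. At NCOA1 (gene ID 8648, chr2:24491254-24770702), which encodes SRC-1, the region at chr2:24793040-24793458 had a fold of 5.83 and 14 tags. Its summit lay 22646 bp from NCOA1 and 43 bp downstream of the start of PTRHD1. At EP300 (gene ID 2033, chr22:41092592-41180077), the region at chr22:41205075-41205289 had a fold of 5.94 and 16 tags. Its summit lay 25091 bp from EP300 and 144 bp upstream of the start of L3MBTL2, which encodes a Polycomb-group protein. Both regions stood in the middle of the list, at rank 2859 for NCOA1 and 2350 for EP300 of 4542. The nearest region to NCOA2 (gene ID 10499, chr8:70109782-70456446), which encodes the p160 coactivator TIF2, was 2430788 bp away.

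NCOR1 (gene ID 9611, chr17:16029157-16215534, minus strand) encodes a scaffold that brings histone deacetylase HDAC3 to receptors, and a site beside it was the only one of the 16 with STAT5B regions of both treatments. The site lay between 1572 and 1613 bp from the 5′ end of NCOR1, at the start of PIGL, a gene of the glycosylphosphatidylinositol anchor pathway that runs the other way. STAT5B had a fold of 7.84 with 10 tags in prednisolone-treated N642H cells, at chr17:16217083-16217208. It had a fold of 7.46 with 27 tags in untreated N642H cells, at chr17:16217076-16217259, and a fold of 7.91 with 15 tags in untreated WT cells, at chr17:16217038-16217295. The 3 summits were within 41 bp of each other, between 63 and 104 bp upstream of the PIGL start. The region stood at rank 189 of 446 in prednisolone-treated N642H cells, 513 of 4542 in untreated N642H cells and 391 of 2267 in untreated WT cells. The STAT5B list of prednisolone-treated WT cells had no region there, and NR3C1 had none in any list.

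**Figure D2:**
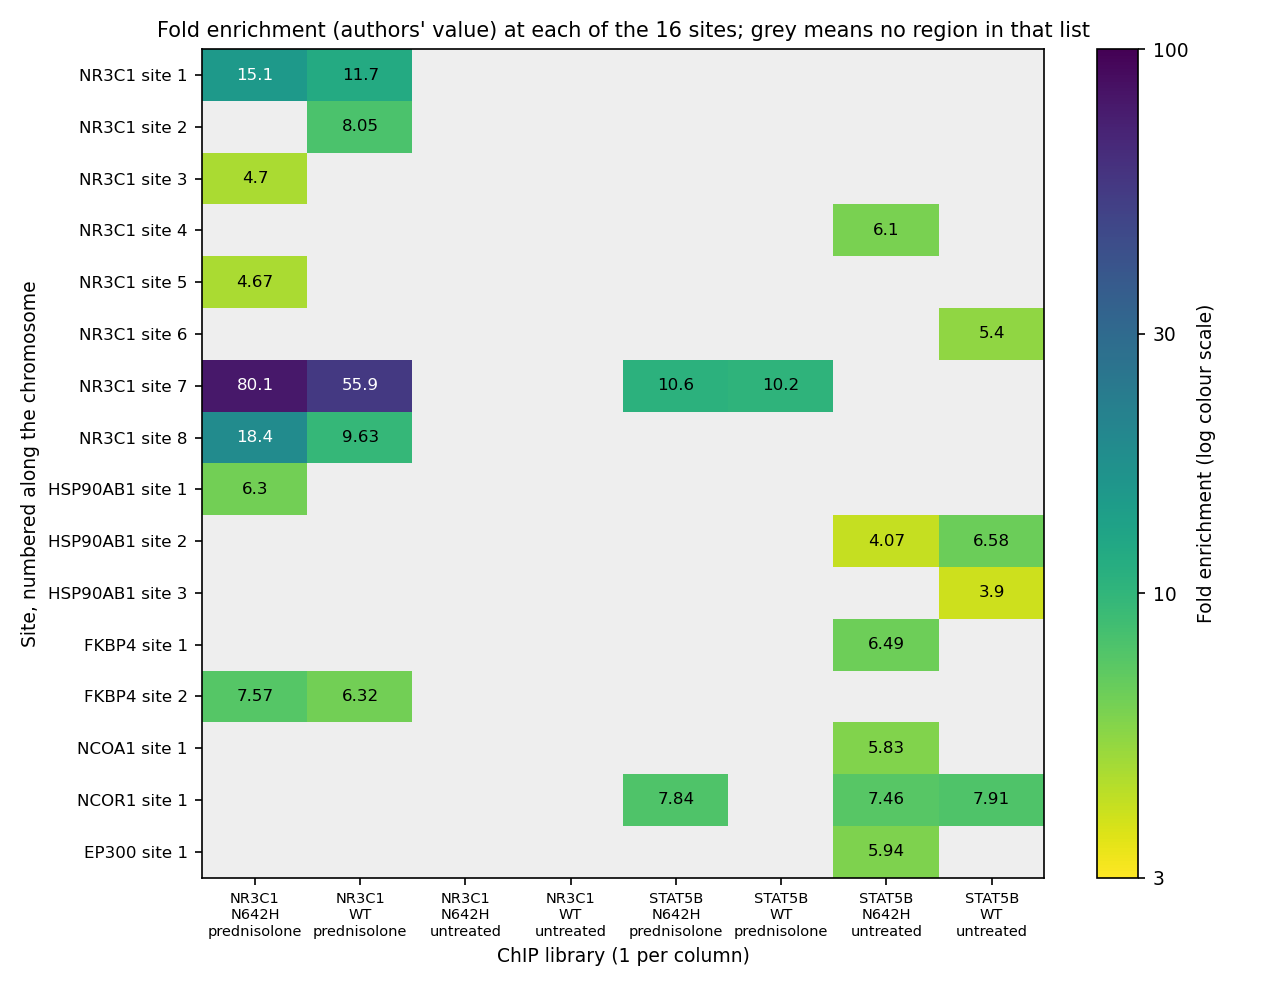
Fold enrichment (the authors' value, log colour scale) at the 16 sites (rows, numbered along the chromosome within each gene) in the 8 ChIP libraries (columns), with grey where a list has no region. The NR3C1 columns of prednisolone-treated cells and the untreated STAT5B columns are filled at different sites, though FKBP4 sites 1 and 2 are only 51 bp apart in N642H cells. Only NR3C1 site 7, the distal site, is filled for both antibodies.

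**Figure D3:**
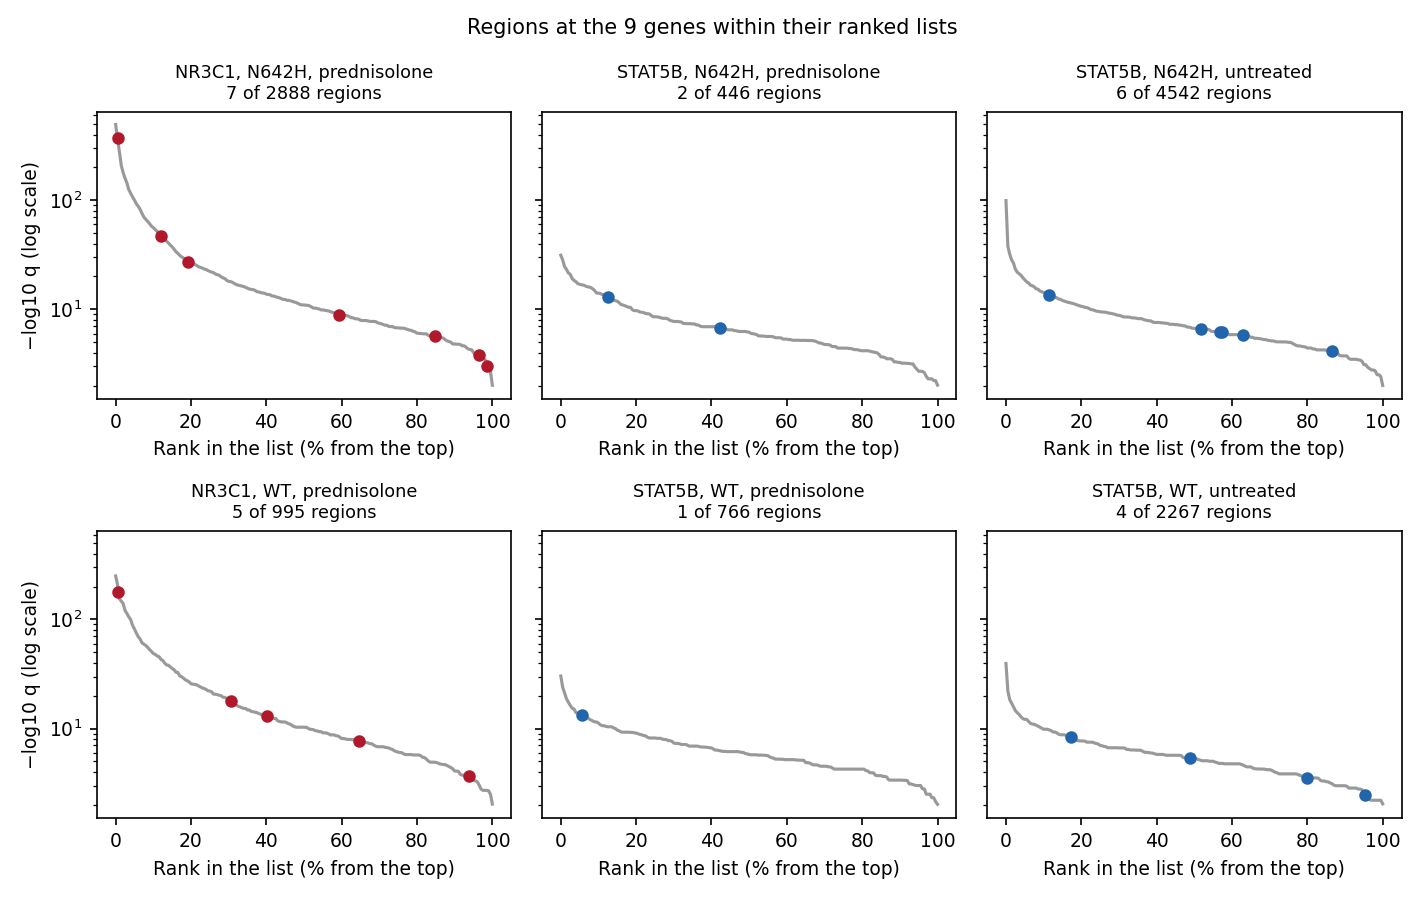
The −log10 q of all regions of each of the 6 longer lists (grey line, log axis) against rank from the top in percent, with the regions at the 9 genes as points. The distal NR3C1 site stands at 0.519% of the N642H and 0.704% of the WT list of NR3C1 after prednisolone, while most other points lie on the lower slope.

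Within 50 kb of the span, NR3C1 regions of prednisolone-treated N642H cells lay at 3 of the 9 genes (NR3C1, HSP90AB1 and FKBP4), and such regions lay at 16.8% of all 19866 protein-coding genes. In prednisolone-treated WT cells NR3C1 regions lay at 1 of the 9 (FKBP4) and at 6.49% of all genes. The untreated NR3C1 lists reached none of the 9 and 0.0453% of all genes in each line. STAT5B regions lay at 1 of the 9 (NCOR1) and at 4.77% of all genes in prednisolone-treated N642H cells. They lay at none of the 9 and at 9.6% of all genes in prednisolone-treated WT cells. In untreated N642H cells STAT5B regions lay at 6 of the 9 and at 39.5% of all genes, and in untreated WT cells at 3 of the 9 and at 23.2%. With 9 genes, 1 gene more or fewer moves each of these shares by more than 10 percentage points. The spans ran from 7690 bp for HSP90AB1 to 366559 bp for NR3C2. Gene length and the density of neighbouring genes were not taken into account. Within 200 kb, the window used for NR3C1, which had a region in all 6 longer lists, the share of all genes was 38.8% and 16.9% for NR3C1 in prednisolone-treated N642H and WT cells and 0.116% in each untreated line. For STAT5B it was 11.7% and 22.1% in prednisolone-treated N642H and WT cells, and 64.4% and 45.2% in untreated N642H and WT cells.

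Between the lines, NR3C1 after prednisolone shared 4 of 7 regions at these genes when counted from N642H cells, where 30.7% of the list was shared (exact 95% interval 29.0 to 32.4%). Counted from WT cells, 4 of 5 were shared, against 89.9% of the list (87.9 to 91.7%). The shared regions were the 2 distal sites, the farthest site in ARHGAP26 and the site in ITFG2, and the WT region without a partner was the other site inside ARHGAP26. The N642H regions without a partner were that beside ARHGAP26, that at the NR3C1 promoter and that in SLC29A1, and all 3 stood at rank 2446 of 2888 or lower. STAT5B in untreated cells shared 2 of 6 regions when counted from N642H cells and 2 of 4 when counted from WT cells, namely those at HSP90AB1 and at PIGL beside NCOR1. The same shares over the whole lists were 29.8% from N642H cells and 61.4% from WT cells. With the longer N642H lists cut to the length of the WT lists by −log10 q, N642H cells kept 3 NR3C1 regions against 5 in WT cells, and 1 untreated STAT5B region against 4. For STAT5B after prednisolone, 1 of 2 regions was shared from N642H cells (41.0% of the list) and the 1 region of WT cells was shared (23.8%), at the distal site.

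Across treatment, STAT5B in N642H cells had 1 region in both lists, at PIGL beside NCOR1. That was 1 of 2 regions of the prednisolone list, in which 70.4% of all regions were shared, and 1 of 6 of the untreated list, in which 6.87% were. STAT5B in WT cells shared 0 of 1 region counted from the prednisolone list (59.3% of that list) and 0 of 4 counted from the untreated list (19.9%). The prednisolone and untreated STAT5B lists thus had different regions at NR3C1 in both lines, with the distal site in the prednisolone lists and a promoter in the untreated lists. The lists differed in length and in median tags at the summit, which were 11 in prednisolone-treated N642H, 15 in prednisolone-treated WT, 16 in untreated N642H and 12 in untreated WT cells. The part of these differences in the result was not tested.

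Across antibodies, the distal site alone was shared after prednisolone. It was 1 of 7 NR3C1 regions (7.76% of the list) and 1 of 2 STAT5B regions (53.6%) in N642H cells, and 1 of 5 NR3C1 regions (14.1%) and 1 of 1 STAT5B region (18.4%) in WT cells. NR3C1 regions of prednisolone-treated cells overlapped no untreated STAT5B region of the same line at these genes. In N642H cells this was 0 of 7 counted from NR3C1 (27.8% of the list) and 0 of 6 from STAT5B (17.7%). In WT cells it was 0 of 5 from NR3C1 (16.3%) and 0 of 4 from STAT5B (7.19%). The NR3C1 and untreated STAT5B regions of N642H cells in ITFG2 were separated by 51 bp, with summits 198 bp apart. A rule on summit distance could thus have counted them as shared, and no alternative was tried for this comparison.

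The regions also differed in where they lay relative to transcription starts. All 6 STAT5B regions of untreated N642H cells and all 4 of untreated WT cells at these genes had their summit within 1 kb of an annotated start, as did 57.9% and 59.1% of those lists. Of the NR3C1 regions after prednisolone, 2 of 7 in N642H cells and 1 of 5 in WT cells did, against 13.9% and 8.82% of the lists. For STAT5B after prednisolone the counts were 1 of 2 in N642H cells and 0 of 1 in WT cells, against 48.2% and 60.3%. Of the 25 regions, 14 lay within 1 kb of a start, but for only 6 was the nearest start that of the listed gene itself, either NR3C1 or HSP90AB1.

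**Figure D4:**
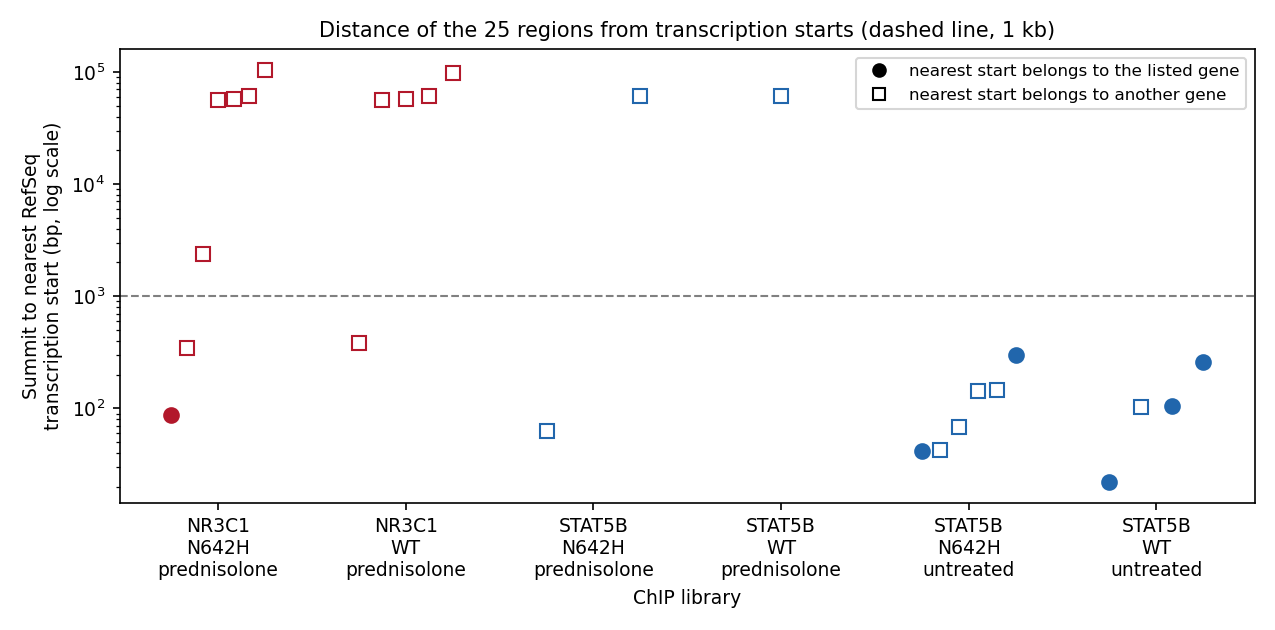
Distance from the summit of each of the 25 regions to the nearest RefSeq transcription start (bp, log axis) by ChIP library, with filled circles where that start belongs to the listed gene and open squares where it belongs to another gene. All untreated STAT5B points lie below the dashed line at 1 kb, and most NR3C1 points lie above it.

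A wider list of 48 genes of the same roles was counted with a 50 kb window. It was chosen with earlier results of these data known, so its shares are a description only. NR3C1 regions lay at 14 of the 48 genes (29.2%) in prednisolone-treated N642H cells and at 7 (14.6%) in prednisolone-treated WT cells, and at none in the untreated lists. STAT5B regions lay at 6 (12.5%) in prednisolone-treated N642H, 8 (16.7%) in prednisolone-treated WT, 30 (62.5%) in untreated N642H and 14 (29.2%) in untreated WT cells. In the 6 longer lists each share was above that of all protein-coding genes, given before, and the 2 untreated NR3C1 lists had 2 regions each. Differences in gene length and in the density of neighbouring genes were not taken into account, and their part in this was not tested. Neighbouring genes of the list could also count the same region. SMARCA4 and another coactivator gene did so, as did neighbouring chaperone genes in untreated N642H cells.

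**Figure D5:**
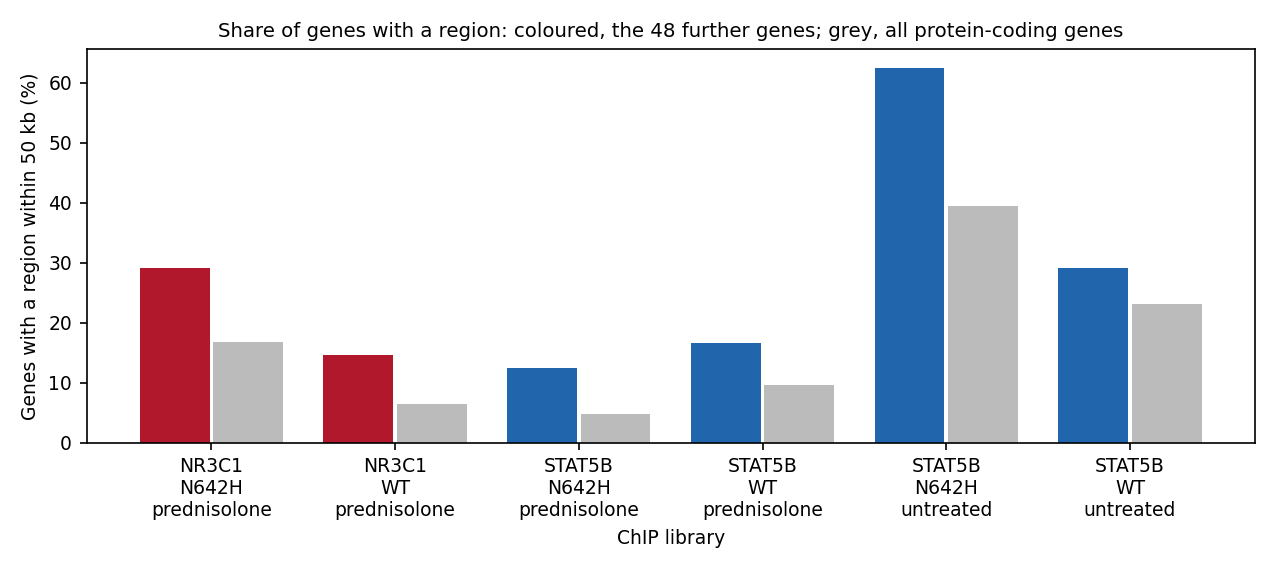
Share of genes with a region within 50 kb (percent, bars from 0) in each of the 6 longer lists, for the 48 further genes of the same roles (coloured) and for all 19866 protein-coding genes (grey). The coloured bar is the taller one in every list, from 12.5% against 4.77% for STAT5B in prednisolone-treated N642H cells to 62.5% against 39.5% for STAT5B in untreated N642H cells. The 48 genes were chosen with earlier results of these data known.

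Among 14 further chaperone genes, 5 had an NR3C1 region in prednisolone-treated N642H cells and 2 in prednisolone-treated WT cells. STAT5B reached 1 in each prednisolone list, 9 in untreated N642H and 4 in untreated WT cells. STUB1 encodes the ubiquitin ligase CHIP, which acts on HSP90 clients. The strongest NR3C1 region of this role lay 7645 bp from it in N642H cells, with a fold of 41.7 (chr16:690278-690708), and 7658 bp from it in WT cells, with a fold of 26.6 (chr16:690319-690674). STAT5B had a region with a fold of 5.14 at the same place in prednisolone-treated WT cells. Within 50 kb of STUB1 there were also 6 STAT5B regions in untreated N642H and 3 in untreated WT cells, the strongest with folds of 10.1 and 6.67 at the start of a neighbouring gene. HSPA8, the constitutive HSC70 that hands the receptor to HSP90, had an NR3C1 region 557 bp from its start in N642H and 561 bp in WT cells, with folds of 14.6 and 8.10. Its summit lay outside HSPA8, and the nearest start was that of LOC124902775, 31 bp away in N642H and 35 bp in WT cells. HSF1, the factor that switches on the heat shock genes, had an NR3C1 region inside the gene in N642H cells, with a fold of 8.99. STIP1, or HOP, the adaptor between HSC70 and HSP90, had a STAT5B region 21 bp from its own start in untreated WT cells, with a fold of 7.16. Its NR3C1 region in N642H cells, with a fold of 7.73, lay at the start of FERMT3.

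Of 4 further immunophilin and phosphatase genes, FKBP5 and PPID had NR3C1 regions in both lines after prednisolone, and FKBP5 was the 1 gene of the 4 reached by STAT5B in each of its lists. FKBP5 encodes FKBP51, which opposes FKBP52 in the receptor complex and is a known glucocorticoid target. Its strongest NR3C1 region had a fold of 106 in N642H cells, at rank 4 of 2888, and 73.0 in WT cells, at rank 2 of 995. The STAT5B region with the highest −log10 q had a fold of 11.2 in prednisolone-treated N642H cells. In prednisolone-treated WT cells, where it led the list, its fold was 17.2. In the untreated lists, the STAT5B region with the highest −log10 q had a fold of 11.2 in N642H and 9.07 in WT cells. In untreated N642H cells the strongest STAT5B region lay 3340 bp from the FKBP5 start, and in the other 3 STAT5B lists it lay between 363 and 458 bp from it. The region linked to PPID, which encodes cyclophilin 40, lay at C4orf46 and had folds of 5.09 in N642H and 9.67 in WT cells.

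Of 12 further coactivator and mediator genes, NR3C1 reached 2 in prednisolone-treated N642H and 1 in prednisolone-treated WT cells. STAT5B reached 2 in prednisolone-treated N642H, 5 in prednisolone-treated WT, 10 in untreated N642H and 6 in untreated WT cells. KAT2B, which encodes the acetyltransferase PCAF, had an NR3C1 region inside the gene in N642H cells at chr3:20104263-20104606, with a fold of 18.3. An untreated STAT5B region of the same line overlapped it, at chr3:20104340-20104621, with a fold of 7.07. STAT5B in prednisolone-treated WT cells had a region 630 bp from the KAT2B start, at chr3:20039791-20039949, with a fold of 6.93. ARID1A, a subunit of the SWI/SNF remodelling complex, had regions in all 6 longer lists. The strongest region of each list had a fold of 6.13 and 6.28 for NR3C1 in N642H and WT cells after prednisolone, of 6.99 and 8.56 for STAT5B in the same cells, and of 11.4 and 6.72 for STAT5B in untreated N642H and WT cells. The strongest STAT5B regions linked to MED1, a Mediator subunit, lay at the start of CDK12, with folds between 5.06 and 12.3 in the 4 lists. The regions linked to SMARCA4, the SWI/SNF ATPase, lay at the starts of YIPF2 and TIMM29, between 32257 and 32322 bp away, with folds between 7.42 and 9.41 in 3 lists.

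Of 10 further corepressor genes, NR3C1 reached 4 in prednisolone-treated N642H and 1 in prednisolone-treated WT cells, and STAT5B reached 2 and 1 in the same cells and 9 and 3 in untreated N642H and WT cells. TBL1X, a subunit of the NCOR complexes, had an NR3C1 region inside the gene in N642H cells with a fold of 14.6, and STAT5B regions at its start in untreated N642H and WT cells with folds of 8.09 and 8.54. HDAC3, the deacetylase of the same complexes, had 2 NR3C1 regions within 50 kb in N642H cells. The one with the higher −log10 q, with a fold of 8.86, lay 36550 bp away, 8831 bp from the start of ARAP3. NRIP1, a corepressor of nuclear receptors, had an NR3C1 region inside the gene in N642H cells, with a fold of 5.64. Of 8 genes for other steroid receptors and steroid handling, ESR2, an oestrogen receptor gene, had an NR3C1 region inside the gene with a fold of 13.9 in N642H and 10.3 in WT cells. HSD11B1, which encodes an enzyme that reactivates glucocorticoids, was the other gene reached, 33592 bp from a STAT5B region of untreated N642H cells with a fold of 3.88 at TRAF3IP3.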

How the data were processed

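The 8 lists were deposited by the authors as 1 region list per ChIP library. BWA, MACS2 and deepTools are named in the submitters' processing notes with hg38, and no versions are given in the sources used here. The authors deposited, for each region, a score (from the values, 10 times the −log10 q), a fold enrichment (a ratio), and −log10 values of the p-value and q-value. None was recomputed. No file of the 4 input libraries was used here, and which input went with which list is not given in the sources used here.

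Regions outside chromosomes 1 to 22, X and Y were set aside, with coordinates counted from 1. The members and gene lists were chosen with earlier results of these data known. Gene spans, transcription starts and promoters came from RefSeq tables of GRCh38.p14, and 7 of the 9 genes were in the promoter table, without FKBP4 and NCOA2. Chromosome 8 regions were left out of the counts at starts. Regions were shared when they overlapped by at least 1 bp. Clopper-Pearson intervals cover counting error only. Pileup at each summit was solved from fold and −log10 p under the Poisson formula with a pseudocount of 1, and divided by the pileup of 1 tag. In simulated lists made with the same formula it was recovered in 300 of 300 regions. Those lists spanned fewer tags and a narrower range of backgrounds than the data, and recovery outside that range was not tested. The NR3C1 tag counts at the distal site lay above it, as did the local background of the HSP90AB1 region of untreated N642H cells. The local backgrounds of the STAT5B region beside NCOR1 in prednisolone-treated N642H cells and of the NR3C1 region beside FKBP4 in prednisolone-treated WT cells lay below it. A high local background meant at least 10 times the genome background of the library. With 1 library per group there were no tests. The genes named were all 9 members and, of the 48 further genes, up to 4 per role by the highest −log10 q of an NR3C1 and then of a STAT5B region. A gene that this rule names is not reported here. Python 3.11.15, pandas 2.3.3, numpy 2.4.6 and scipy 1.17.1 were used.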

Additional observations from a re-analysis of the deposited data

How the results depend on the processing

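Of the counts of regions per library and of regions shared between the lines, 40 of 57 under the alternatives tried stayed within 1.5 times their value. Some of these could not move. No region at these genes lay on a high local background, so leaving out such regions could change no count. Cutting to equal length left the shorter list of each pair whole. With a 20 kb window around every gene, NR3C1 had 2 regions in prednisolone-treated N642H and 1 in prednisolone-treated WT cells, and STAT5B had 1 and 0 in the same cells. With 50 kb around NR3C1 too, an alternative chosen after seeing the data, these 4 counts were 4, 1, 1 and 0. Both distal sites and the 2 sites inside ARHGAP26 lie outside that window. With 100 kb around the other genes, STAT5B had 2 regions in prednisolone-treated WT and 7 in untreated WT cells. With lists cut to equal length, NR3C1 in prednisolone-treated N642H cells had 3 regions, against 5 in WT cells, and untreated STAT5B in N642H cells had 1, against 4 in WT cells. In the deposited lists N642H cells had the higher count in both comparisons, so the order of the lines turned round at equal length. With −log10 q of at least 5, untreated STAT5B in WT cells had 2. Regions of untreated N642H cells shared with WT cells numbered 1 with −log10 q of at least 5, 1 with a fold of at least 5 and 1 at equal length. When overlap of at least 50% of each region was asked for, STAT5B regions after prednisolone shared between the lines numbered 0, since the N642H region at the distal site is the narrower. Of 20 counts of regions shared across treatment or antibody, 18 were equal under the alternatives and 2 fell to 0. The count for STAT5B in WT cells across treatment was 0 as reported, so it could not fall, and each of the others was 1. Overlaps of prednisolone NR3C1 regions with untreated STAT5B regions were not among these counts. At the distal site the STAT5B and NR3C1 regions of N642H cells no longer counted as shared when that overlap was asked for, and beside NCOR1 the STAT5B region of prednisolone-treated N642H cells no longer had a partner in the untreated list at equal length. Without replicates, no library could be left out in turn. No paired analysis was possible because each group held 1 library. Depth is known only at the summits, where 22 of the 25 regions at these genes rest on 10 to 27 tags, so a region missing from a list may lie below its threshold.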
